A study of Mus musculus with 12 samples.

Results

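The genes described here code for the pyruvate dehydrogenase complex and the kinases that switch it off. They were measured in samples labelled as colonocytes, epithelial cells that line the colon, of germfree (GF) and conventionally raised (CONV) mice. The members were chosen by symbol: Pdha1, Pdk2 and Pdk3, with Pdk1, Pdk4, Pdhb, Dlat, Pdhx and Pcx where the deposited table had a row for them. Of these 9 symbols 6 had a row (Pdha1, Pdhb, Dlat, Pdk1, Pdk2 and Pdk3), out of 15154 rows in the table, and all 6 passed the filter on detection that left 8107 genes to test. Pdk4, Pdhx and Pcx were not analysed here. A row named Pdx1, an older name of Pdhx that is also the current name of another gene, was not taken for it.

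RNA of flash-frozen isolated colonocytes of C57BL/6 mice was hybridised to Illumina bead arrays, with 6 GF arrays (mice held without microbes in isolators) and 6 CONV arrays (mice with a normal microbiota), called biological replicates in the labels. Each of 2 batches held 3 GF and 3 CONV arrays, and batch 1 and batch 2 values are given apart below because the batches differed in scale. The labels give neither the age nor the sex of the mice, and whether a sample pooled several animals is not stated. In bulk RNA of this kind, fewer cells of a type and less RNA per cell cannot be told apart.

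The pyruvate dehydrogenase complex sits in the mitochondrial matrix and turns pyruvate, the end product of glycolysis, into acetyl-CoA for the tricarboxylic acid cycle. The Pdk kinases phosphorylate its Pdha1 subunit and so inactivate it, and dedicated phosphatases reverse this. Colonocytes of mice with a microbiota draw much of their energy from butyrate, a bacterial product that yields acetyl-CoA without passing through pyruvate, so the complex and its kinases stand at the point where the sugar-derived supply is let in or held back.

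For the 3 kinase genes with a row, the 250 bases before the annotated start of each are shown (RefSeq, GRCm38.p6, 5′ to 3′ on the strand of the gene). The Pdk2 window is chr11:95041372-95041621 on the minus strand, the Pdk3 window chrX:93832151-93832400 on the minus strand and the Pdk1 window chr2:71872974-71873223 on the plus strand, and for Pdk2 and Pdk1, which each have 2 annotated starts in the table, the one nearest the 5′ end of the gene was taken. Capitals mark matches, on either strand, to the motifs spelled out after the sequences.
Pdk2: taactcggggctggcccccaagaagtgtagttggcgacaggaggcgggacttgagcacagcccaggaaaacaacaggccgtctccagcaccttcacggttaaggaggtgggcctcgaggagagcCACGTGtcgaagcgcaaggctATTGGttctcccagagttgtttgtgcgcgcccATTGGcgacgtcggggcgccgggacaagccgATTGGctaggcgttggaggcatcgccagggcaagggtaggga
Pdk3: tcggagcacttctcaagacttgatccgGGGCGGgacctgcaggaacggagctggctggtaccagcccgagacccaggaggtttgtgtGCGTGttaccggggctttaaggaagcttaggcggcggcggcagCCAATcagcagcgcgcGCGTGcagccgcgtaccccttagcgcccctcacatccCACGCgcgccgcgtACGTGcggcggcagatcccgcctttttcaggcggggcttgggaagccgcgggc
Pdk1: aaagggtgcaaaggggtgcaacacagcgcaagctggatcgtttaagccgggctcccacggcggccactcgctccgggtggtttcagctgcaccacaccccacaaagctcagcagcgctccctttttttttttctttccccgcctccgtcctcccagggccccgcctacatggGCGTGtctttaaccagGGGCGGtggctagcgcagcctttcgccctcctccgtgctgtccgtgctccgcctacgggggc

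The motifs searched were ACGTG and GCGTG, the core letters bound by hypoxia-inducible factors, the E-box CACGTG, which holds ACGTG on both strands, the CCAAT box CCAAT, the GC box GGGCGG, the nuclear receptor motif AGGTCA and the forkhead site GTAAACA. The Pdk2 window held 1 E-box, 126 bases before the start, a motif found in 6.0% of the 32851 promoter windows of the same length. It also held 3 CCAAT boxes, all read on the opposite strand, at 105, 73 and 42 bases before the start, where 33.8% of windows held at least 1. The Pdk3 window held 1 ACGTG and 3 GCGTG letters (16.6% and 28.2% of windows held at least 1), 1 CCAAT box and 1 GC box. In the Pdk1 window 1 GCGTG and 1 GC box were found (32.7% of windows held a GC box). AGGTCA, present in 4607 of the windows, and GTAAACA, present in 3.2%, were found in none of the 3. These matches describe letters and do not show binding.

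Among the kinases, Pdk2 rose 1.56-fold and Pdk3 fell to 0.672 of its CONV level in GF colonocytes, while the 3 catalytic subunit genes of the complex did not pass the test in either direction. Of the 6 members 1 rose, 1 fell and 4 did not pass (limma with batch as a term, Benjamini-Hochberg adjusted over 8107 genes). Over all genes tested 23.3% passed, 11.3% higher and 12.0% lower in GF, and the 2 passing members of 6 are to be read against that share. The median change of the members was 0.05 on the log2 scale, against 0.01 over all genes.

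**Figure D1:**
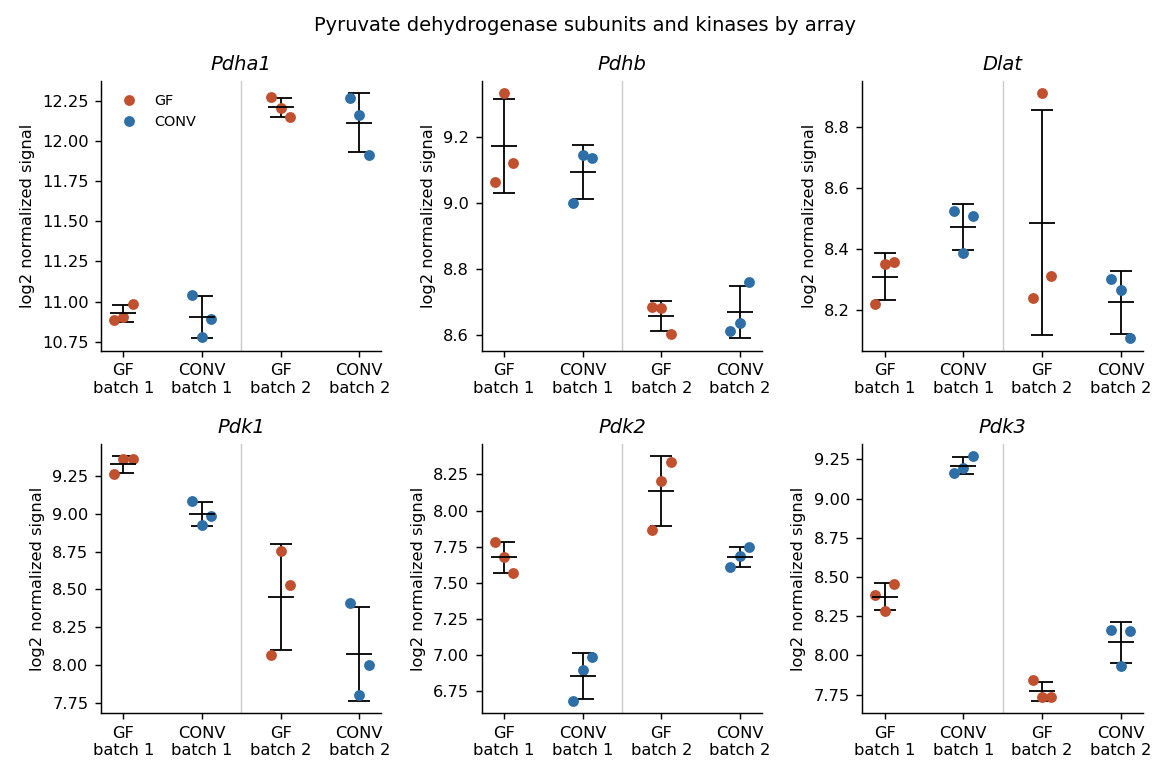
The log2 normalized signal (vertical axis, arbitrary array units) of each member on the 12 arrays, with GF left of CONV within each batch; points are arrays and bars the mean ± SD of 3 arrays. Pdk2 is higher and Pdk3 lower on every GF array than on any CONV array of its batch, while the groups overlap for Pdha1 and Pdhb.

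Pdk2 codes for a widely expressed pyruvate dehydrogenase kinase. Its deposited intensity was 266, 249 and 238 on the GF arrays of batch 1, against 155, 167 and 175 on the CONV arrays. In batch 2 it was 393, 457 and 482 in GF, against 358, 368 and 376 in CONV. Every GF array lay above every CONV array of its batch. After background correction and normalization the log2 signal averaged 7.68 ± 0.11 in GF and 6.86 ± 0.16 in CONV in batch 1, and 8.14 ± 0.24 in GF and 7.68 ± 0.07 in CONV in batch 2 (SD, n = 3 each). The change, GF minus CONV over all 12 arrays, was 0.64 ± 0.10 (SE, n = 6 per group), a 1.56-fold rise (95% interval 1.33 to 1.82, limma adjusted p = 0.000991). Of the genes tested 6.22% changed by as much or more in either direction. Within batch 1 the change was 0.82 ± 0.09 (adjusted p = 0.000131), where 46.9% of genes passed, and within batch 2 it was 0.46 ± 0.15 (adjusted p = 0.162), where 2.70% passed. The change in batch 1 minus that in batch 2 was 0.36 ± 0.18 and did not pass (adjusted p = 0.243). The negative control intensity, worked back from the detection p-values, averaged 56.7 to 58.7 in batch 1 and 182 to 183 in batch 2, and without correction for it the change of Pdk2 was 0.42 (adjusted p = 0.000710).

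Pdk3, which codes for another kinase of the same family, went the other way. Its deposited intensity was 384, 354 and 400 on the GF arrays of batch 1, against 614, 616 and 647 on the CONV arrays. In batch 2 it was 389, 373 and 376 in GF, against 449, 405 and 449 in CONV. Every GF array lay below every CONV array of its batch, with the wider gap in batch 1. The log2 signal averaged 8.37 ± 0.09 in GF and 9.21 ± 0.06 in CONV in batch 1, and 7.77 ± 0.06 in GF and 8.08 ± 0.13 in CONV in batch 2 (SD, n = 3 each). Over all arrays it fell by 0.57 ± 0.10 on the log2 scale (SE, n = 6 per group), to 0.672 of its CONV level (95% interval 0.580 to 0.778, limma adjusted p = 0.00144). The change was -0.84 ± 0.06 within batch 1 (adjusted p = 1.61e-05) and -0.31 ± 0.12 within batch 2 (adjusted p = 0.212). Pdk3 was the only member to pass the test for a change that differs between the batches. Pdk2 at 0.36 ± 0.18 and Dlat at -0.43 ± 0.21 did not pass it (interaction, limma adjusted p = 0.243 and 0.254). For Pdk3 batch 1 minus batch 2 was -0.52 ± 0.12 (interaction, limma adjusted p = 0.0255), and 8.86% of genes passed that test. That call was lost with 75th percentile scaling (adjusted p = 0.0642), with cyclic loess (adjusted p = 0.0579) and when CONV 2, CONV 3, GF 1 or GF 2 was left out (adjusted p = 0.0612, 0.0759, 0.0641 and 0.0769).

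Pdk1, a kinase gene known as a target of hypoxia-inducible factor, did not pass the all-array test. Its deposited intensity was 656, 678 and 688 in GF of batch 1, against 588, 526 and 540 in CONV, and 434, 597 and 534 in GF of batch 2, against 504, 386 and 419 in CONV. The groups did not overlap in batch 1 and overlapped in batch 2, where GF replicate 4 lay below CONV replicate 4. The change over all arrays was 0.35 ± 0.12 (95% interval 0.09 to 0.62, limma adjusted p = 0.0525). Within batch 1, where 46.9% of genes passed, it was 0.33 ± 0.06 and passed (adjusted p = 0.00280). Within batch 2 it was 0.38 ± 0.23 (adjusted p = 0.406). Without CONV replicate 4 or GF replicate 4 the all-array change was 0.43 (adjusted p = 0.0209) or 0.44 (adjusted p = 0.0153) and passed.

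**Figure D2:**
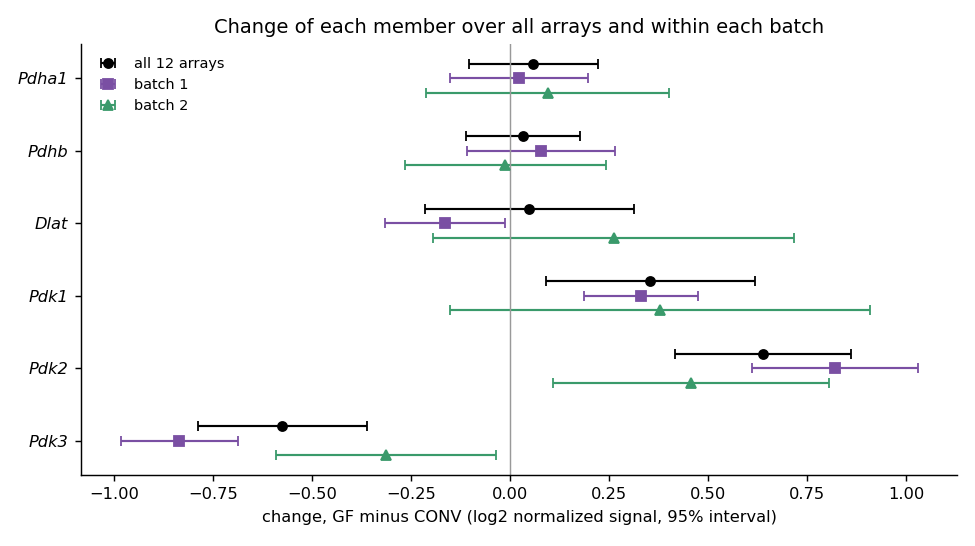
Log2 change of each member in GF relative to CONV (horizontal axis) and its 95% interval, over all 12 arrays (black circles), within batch 1 (purple squares) and within batch 2 (green triangles). The Pdk2 intervals lie right of 0 and the Pdk3 intervals left of it in all 3 fits, and the Pdha1 and Pdhb intervals hold 0 in each. The intervals are per gene and not adjusted for the number of genes tested. In batch 2 alone neither Pdk2 nor Pdk3 passed (limma adjusted p = 0.162 and 0.212).

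The gap between Pdk2 and Pdk3 was taken on each array as the difference of their log2 signals and set to 0 at the CONV mean of the batch. This removes a constant difference in probe brightness, but not its effect on the size of a change. In batch 1 it was 1.75, 1.75 and 1.47 on the GF arrays, against -0.13, 0.06 and 0.07 on the CONV arrays. In batch 2 it was 0.43, 0.88 and 1.00 in GF, against -0.15, 0.16 and -0.01 in CONV. All 6 GF arrays lay above all 6 CONV arrays, with a mean of 1.66 ± 0.16 in GF of batch 1 and 0.77 ± 0.30 in GF of batch 2 (SD, n = 3 each). Averaged over the batches, the gap in GF minus that in CONV was 1.21. It was 0.87 without background correction and 0.96 with normexp without negative controls. These values are a description, since the pair was set side by side with its opposite changes known.

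**Figure D3:**
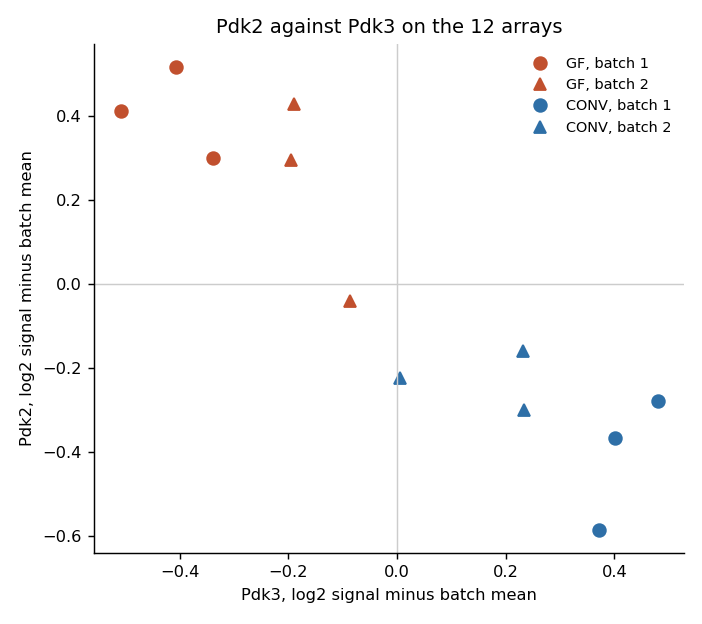
Log2 signal of Pdk2 (vertical axis) against Pdk3 (horizontal axis) on the 12 arrays, each minus its mean over the 6 arrays of the batch; red points are GF and blue CONV, circles batch 1 and triangles batch 2. The GF arrays fall in the upper left, with 1 batch 2 array just below 0 for Pdk2, and the CONV arrays on the lower right.

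The subunits of the complex stayed near 0 in the all-array test. Pdha1 codes for the alpha subunit of the decarboxylating enzyme and carries the sites that the kinases phosphorylate. Its deposited intensity was 1860, 1837 and 1958 in GF of batch 1, against 2043, 1707 and 1811 in CONV, and 5592, 5469 and 5133 in GF of batch 2, against 5494, 5182 and 4358 in CONV. The groups overlapped in both batches. The change was 0.06 ± 0.07 (limma adjusted p = 0.618), with a 95% interval from 0.931-fold to 1.17-fold, so a change of the size seen for Pdk2 lies outside that interval. Pdha1 was bright on every array, yet it counted as detected only on the 6 arrays of batch 2. Its detection p in batch 1 ran between 0.174 and 0.458 and lay between the steps of 1 in 1603 that rows of a single probe follow there, and nothing in the labels or the table says how its probes were combined.

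Pdhb, the beta subunit that pairs with Pdha1, had deposited intensities of 581, 671 and 598 in GF of batch 1, against 560, 599 and 599 in CONV. In batch 2 they were 578, 577 and 552 in GF, against 552, 564 and 602 in CONV. The groups overlapped in both batches, and the change was 0.03 ± 0.07 (95% interval 0.926-fold to 1.13-fold, limma adjusted p = 0.765). Dlat, the acetyltransferase core on which the complex is built, was measured at 347, 368 and 378 in GF of batch 1, against 415, 378 and 405 in CONV, and at 465, 647 and 477 in GF of batch 2, against 477, 470 and 440 in CONV. In batch 1 the GF arrays lay below the CONV arrays on the normalized scale without passing the test (-0.16 ± 0.07, adjusted p = 0.0728). In batch 2 GF replicate 5 stood above all others, and the change there was 0.26 ± 0.19 (adjusted p = 0.500). Over all arrays Dlat changed by 0.05 ± 0.12 (95% interval 0.863-fold to 1.24-fold, adjusted p = 0.810), and by -0.07 without GF replicate 5 (adjusted p = 0.523).

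**Figure D4:**
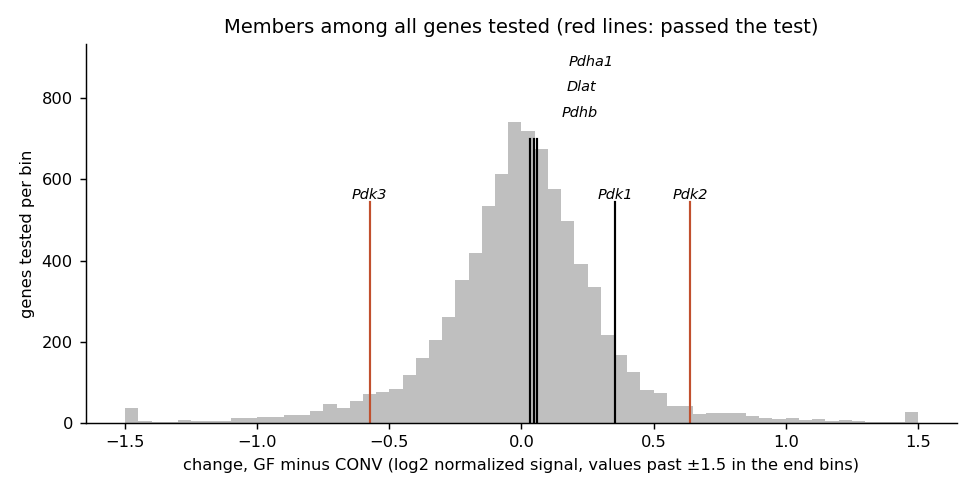
Distribution of the log2 change in GF relative to CONV (horizontal axis) over the 8107 genes tested (vertical axis, genes per bin), with a line at each member. The 2 members that passed the test, Pdk3 at -0.57 and Pdk2 at 0.64, lie in opposite tails, and Pdha1, Pdhb and Dlat lie in the centre.

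Counted over the members, the groups did not overlap for 4 of 6 in batch 1 (56.5% of all genes tested) and for 2 of 6 in batch 2 (26.2% of all genes). Pdk2 and Pdk3 were the 2 members without overlap in the same direction in both batches, which held for 13.6% of all genes, and for 12.7% together with a passing all-array test. Pdk2, Pdk3, Pdk1, Pdhb and Dlat were detected on all 12 arrays.

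Of the 36 tested genes around the complex 1 rose and 2 fell, where 23.3% of all genes passed, 11.3% higher and 12.0% lower in GF. The counts of each list are to be read against the same shares. The phosphatase side was represented by Pdpr alone, the regulatory subunit of the pyruvate dehydrogenase phosphatase, out of 4 partners and phosphatases listed. Pdpr had log2 signals of 8.48, 8.50 and 8.36 in GF of batch 1, against 8.06, 8.17 and 8.18 in CONV, and of 8.85, 8.87 and 8.81 in GF of batch 2, against 8.74, 8.47 and 8.20 in CONV. It was higher on every GF array than on any CONV array of its batch. Groups lay apart in the same direction in both batches for 13.6% of all genes. Over all arrays Pdpr rose by 0.34 ± 0.08 (limma adjusted p = 0.0115). Its change was 0.31 ± 0.07 within batch 1 (adjusted p = 0.00441) and 0.37 ± 0.15 within batch 2 (adjusted p = 0.250). Its row counted as detected on 1 GF and 3 CONV arrays and, like that of Pdha1, had detection p-values between the steps.

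Of 7 tested genes of pyruvate supply and exit 0 rose, 1 fell and 6 did not pass, with a median change of -0.10. The gene that fell was Mpc2, a subunit of the carrier that brings pyruvate into the mitochondrion, by 0.29 ± 0.08 (limma adjusted p = 0.0283). Its log2 signal was 9.63, 9.52 and 9.48 in GF of batch 1, against 9.83, 10.08 and 9.99 in CONV, and 7.65, 7.94 and 7.67 in GF of batch 2, against 7.78, 7.94 and 7.98 in CONV. The groups were apart in batch 1 and overlapped in batch 2. The Mpc2 call did not survive leaving out CONV 2, CONV 3 or any GF array of batch 1 (adjusted p = 0.0554 to 0.0693), and its row counted as detected on 2 GF and 1 CONV arrays. Ldha, the lactate dehydrogenase subunit that turns pyruvate into lactate, was at -0.10 ± 0.09 (adjusted p = 0.466). Its change was -0.35 in batch 1 and 0.15 in batch 2, and the batches differed (interaction, limma adjusted p = 0.0149), a call lost without GF replicate 1 (adjusted p = 0.0523). Gpt, which interconverts alanine and pyruvate, was at -0.35 ± 0.15 (adjusted p = 0.122). Its change was -0.02 in batch 1, where the groups overlapped, and -0.69 in batch 2, where they did not. Over all arrays it was -0.22 without GF replicate 5 and -0.05 with array weights.

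Downstream of the complex, 0 of 6 tested genes of acetyl-CoA and citrate use passed, with Acly, the ATP citrate lyase gene, at 0.03 ± 0.09 and Acss1, a mitochondrial acetyl-CoA synthetase gene, at -0.09 ± 0.08 (limma adjusted p = 0.829 and 0.439). Acly changed by 0.26 in batch 1 and -0.19 in batch 2, and the batches differed (interaction, limma adjusted p = 0.0447), a call lost without any single array other than GF replicate 5 (adjusted p = 0.0546 to 0.114). Of 8 genes that supply the thiamine and lipoate cofactors 0 passed, with Glrx5 at -0.16 ± 0.09 and Bola3 at -0.08 ± 0.11 (adjusted p = 0.216 and 0.672), both acting in the assembly of iron-sulfur clusters that lipoate synthesis needs. In batch 1 alone, where 46.9% of genes passed, both fell, Glrx5 by 0.36 and Bola3 by 0.24 (adjusted p = 0.00273 and 0.0235). Among the sister 2-oxoacid dehydrogenase complexes 1 of 6 genes fell, 0 rose and 5 missed the threshold. The gene that fell was Bckdhb, the beta subunit of branched-chain ketoacid dehydrogenase, by 0.42 ± 0.12 (adjusted p = 0.0259; -0.63 in batch 1 and -0.20 in batch 2). Leaving out any array of batch 1, CONV 4 or GF 4 ended that call (adjusted p = 0.0514 to 0.0631). Dlst and Ogdh, of the 2-oxoglutarate dehydrogenase complex, were at -0.08 ± 0.06 and -0.06 ± 0.08 (adjusted p = 0.375 and 0.683). The Ogdh row counted as detected on 2 GF and 3 CONV arrays and had detection p-values between the steps. Of 8 tested genes of transcription factors and cofactors known to act on Pdk genes 0 passed. Nr1h4, the bile acid receptor, was at 0.26 ± 0.12 (adjusted p = 0.141) and Ppard, a fatty acid receptor, at -0.01 ± 0.09 (adjusted p = 0.934). Nr1h4 passed in batch 1 alone (0.26, adjusted p = 0.00459) and without GF replicate 5 (0.36, adjusted p = 0.0171).

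**Figure D5:**
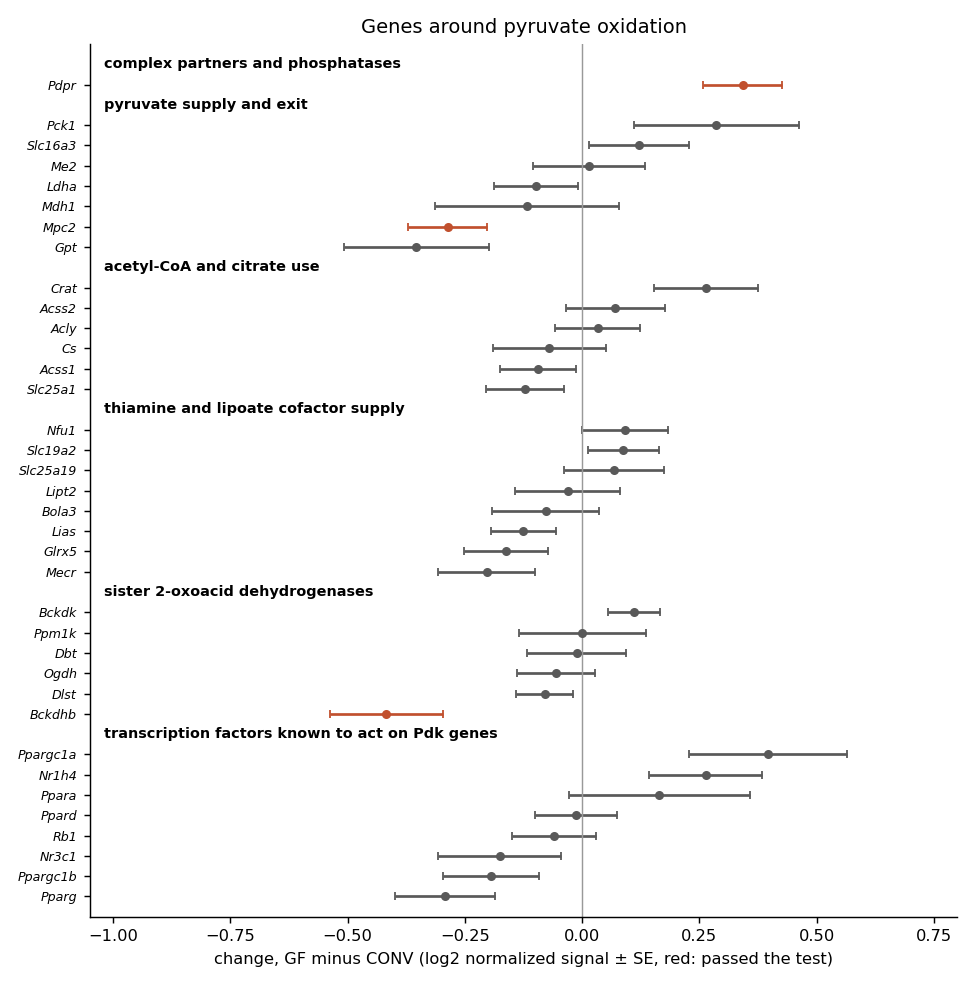
Log2 change in GF relative to CONV, with its SE (horizontal axis), for the 36 tested genes around the complex, grouped by role; red marks genes that passed the test. Pdpr is the gene marked right of 0, and Mpc2 and Bckdhb are marked left of it.

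The genes with the most similar pattern were sought over the 12 arrays after the mean of each batch was removed (Pearson r, given as a description, since the arrays share 2 groups). For Pdk2 the highest r was 0.98 with Slc7a4, a solute carrier gene, followed by Ccl25, a chemokine gene, at 0.96 and Saa2, an acute-phase protein gene, at 0.96, and the lowest were -0.97 with Cdca4 and -0.96 with Anp32e. These 5 genes changed by 0.57, 0.80, 1.55, -0.28 and -0.44. Slc7a4 dropped out under a stricter detection filter (p below 0.01 on at least 6 arrays). For Pdk3 the highest r was 0.98 with Ap1s1, a clathrin adaptor subunit gene, then 0.97 with Ybx3 and 0.97 with Car9, a carbonic anhydrase gene. The lowest were -0.99 with Slco2a1, a prostaglandin transporter gene, and -0.98 with Irak3, an inhibitor of Toll-like receptor signalling. Their changes were -0.35, -0.45, -0.62, 0.73 and 0.69. For Pdha1 r reached 0.84 with Sh3bgrl, Olfr665 and Birc2 and -0.93 and -0.92 with Wfdc13 and 2310011J03Rik. The r with Olfr665 was 0.56 without CONV replicate 6, and that with Wfdc13 was -0.72 with 75th percentile scaling.

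The cell label was checked against markers. Each summed signal below covers every row of its list, tested or not. That is 6 rows each for the small-intestinal, the enteroendocrine and the stem and dividing cell lists. All 11 measured genes of the absorptive colonocyte list passed the detection filter and 8 were detected on all 12 arrays. Of them 1 rose (Car4) and 2 fell (Krt18 and Aqp8), with a summed signal of 89090 to 96080 in GF against 94620 to 105800 in CONV in batch 1 and 111400 to 114300 in GF against 108800 to 113200 in CONV in batch 2. Vil1, the villin gene of the brush border, was at a mean log2 signal of 12.9 (change 0.15 ± 0.09), while Epcam, an epithelial adhesion gene, was dim at 5.63 and detected on 3 GF and 3 CONV arrays (change 0.17 ± 0.10). Of 8 measured leukocyte genes 6 were detected on no array, Ptprc among them, and Cd3g was detected on all 12, with a change of 1.00 in batch 1 and -0.26 in batch 2. The leukocyte sum was 303 to 308 in GF against 242 to 257 in CONV in batch 1, and 379 to 435 in GF against 398 to 515 in CONV in batch 2. Of 2 fibroblast and muscle and 3 endothelial genes tested 0 passed, and the erythrocyte genes were not analysed here. All 5 goblet rows and 5 of 6 enteroendocrine rows were detected on all 12 arrays, so the samples did not hold absorptive cells alone. Values of the other lists stand beside those of Pdk2 and Pdk3 as follows. Of 4 tested small-intestinal genes 3 rose (Fabp6, Sis and Rbp2), with a summed signal of 2204 to 2394 in GF against 622 to 685 in CONV in batch 1 and 1608 to 1821 in GF against 598 to 784 in CONV in batch 2. Sis was detected on 5 GF arrays and 1 CONV array, so it passed the detection filter only through GF, where it was higher. Over all genes tested 11.3% were called higher and 12.0% lower in GF. The counts of the marker lists are to be read against those shares. Of 5 enteroendocrine genes 2 rose (Gcg and Cck) and 3 did not pass, with summed signals of 7578 to 7770 in GF against 3542 to 4262 in CONV in batch 1 and 8738 to 13230 in GF against 6116 to 7963 in CONV in batch 2. Chga changed by 0.90 in batch 1 and -0.47 in batch 2, and the batches differed (interaction, limma adjusted p = 0.00857). The other tested enteroendocrine genes were higher in GF on average in both batches. The goblet list, 5 genes with 3 higher and 1 lower in GF, summed to 48270 to 51270 in GF against 26560 to 28390 in CONV in batch 1 and 60900 to 72140 in GF against 65600 to 70380 in CONV in batch 2, where the groups overlapped. Its members Zg16 and Spdef changed by 1.18 and 1.496 in batch 1 and by 0.05 and -0.002 in batch 2, and the batches differed (interaction, limma adjusted p = 0.000185 and 0.000777). Tff3 changed by 1.05 in batch 1 and 0.32 in batch 2. Clca1 and Agr2 went the other way, by -0.79 and -0.11 in batch 1 and by -0.34 and -0.85 in batch 2. Of these Clca1 was the gene called lower, and Agr2 did not pass the all-array test. Of 4 stem and dividing cell genes 1 rose (Lgr5) and 2 fell (Top2a and Ccnb1), with 945 to 1014 in GF against 1830 to 1859 in CONV in batch 1 and 938 to 1050 in GF against 1166 to 1370 in CONV in batch 2. Their part in the changes of Pdk2 and Pdk3 was not tested.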

How the data were processed

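Total RNA was extracted with Trizol, checked on a Bioanalyzer and labelled with biotin for Illumina arrays, per the labels' protocols. Of tools, the submitters' processing notes list only limma, with no version, and neither array design, scanner software nor genome build is named there. The deposited table held 15154 rows named by gene symbol, each with a value and a detection p-value per array. The deposited values were taken as natural log intensities, because raised to base e many of them come out at few decimals. In 10056 rows of batch 1 and 9498 of batch 2 the deposited detection p-values were whole multiples (within 0.002 of a step) of 1/1603 and 1/1872, and other rows lay between these steps. Arrays of batch 2 share many exact values, and whether the authors had normalized that batch before depositing it is not known. The series' value table held the same values in the 15132 rows named alike.

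Intensities were background corrected with normexp (negative controls inferred from the rows on the steps, offset 16), log2 transformed and made equal in quantiles across arrays (limma 3.58.1 under R 4.3.3). Of the names 11696 were current symbols, 2532 were updated through the GRCm38.p6 gene table, and the other names were kept. The brightest row of each gene was used among those detected (p below 0.05) by 3 or more arrays, which left 8107 genes. Between 7090 and 7402 rows were detected per array in batch 1 and 6089 to 6470 in batch 2, and the number of arrays limits the precision. The limma model held batch and group as terms, its two-sided p-values were adjusted by Benjamini-Hochberg and called at 0.05, and further fits took each batch alone or added an interaction. Intervals are 95%, per gene and not adjusted for the number of genes, and the steps were tested on simulated data. The plan spoke of probes, whereas the rows are genes.

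The members and gene lists were chosen with earlier results of these data known. Named genes followed a rule: all members with a row, up to 4 passing genes and the 2 brightest others of each list, the 3 highest and 2 lowest correlations with Pdha1, Pdk2 and Pdk3, and Epcam and Vil1. The other marker genes named and the Ldha and Acly interactions were chosen after their values were seen. Each other list's result is given once. Whether same-numbered samples pair was checked by the correlation of their deviations from the batch and group means, which ran between -0.26 and 0.04 over 6 pairs, so no pairing was used. So few pairs cannot exclude pairing, and a fit with a replicate block is given below. The alternatives tried were other background corrections, scalings, filters, batch terms, array weights and leaving out arrays. The labels call the samples biological replicates without naming the mice, so p-values measure only the spread between these samples, which may be partly technical.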

Additional observations from a re-analysis of the deposited data

Results flagged for a closer look

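An array was taken to stand apart where its gap to the nearest array, as a share of the range of its group of 6, exceeded Dixon's 95% critical value. The batch mean was removed first. Chance alone passes that value in a share of about 0.05 of groups drawn from values of like spread. Each group here joined 2 batches that can differ in spread and in change, so that share need not hold. In all, 62 groups of 31 genes were examined. Among the genes named, Dlat had a gap of 0.81 of the range at GF replicate 5, Pdhb a gap of 0.658 at GF replicate 2, Ogdh a gap of 0.675 at GF replicate 5, Vil1 a gap of 0.717 at GF replicate 5 and Anp32e a gap of 0.672 at GF replicate 4. Epcam had a gap of 0.688 at GF replicate 1 in GF and of 0.652 at CONV replicate 5 in CONV. The change of Pdk3 differed between the batches by -0.52 (batch 1 minus batch 2, limma adjusted p = 0.0255), that of Ldha by -0.49 (adjusted p = 0.0149) and that of Acly by 0.45 (adjusted p = 0.0447).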

How the results depend on the processing

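The rise of Pdk2 and the fall of Pdk3 kept their direction under all 27 alternatives and passed the test in all but 2. With no batch term the changes were 0.64 (adjusted p = 0.186) and -0.57 (adjusted p = 0.415), and in batch 2 alone 0.46 and -0.31, where 3 arrays a group were fitted. Leaving out 1 array at a time gave 0.58 to 0.72 for Pdk2 and -0.64 to -0.53 for Pdk3. No pairing by replicate number was seen, with 2 of 6 GF arrays matching best the CONV array of their own number, but so few arrays cannot exclude it. With a replicate block the Pdk2 and Pdk3 calls were kept (limma adjusted p = 0.00954 and 0.0152). The calls of Mpc2 and Bckdhb and the interactions of Pdk3, Ldha and Acly were not (adjusted p = 0.0796, 0.0862, 0.0667, 0.0754 and 0.105). Pdk1 passed in 8 of 27 alternatives, among them no background correction (0.28, adjusted p = 0.0364) and array weights (0.34, adjusted p = 0.000606). Array weights also brought Ldha (-0.31), Acly (0.19), Glrx5 (-0.35), Bola3 (-0.22), Ogdh (-0.13), Nr1h4 (0.27), Epcam (0.34) and Vil1 (0.25) past the threshold (adjusted p = 0.000284 to 0.0349). All of these but Ogdh passed in batch 1 alone, Epcam passed without CONV replicate 5 (0.26), and Vil1 passed without GF replicate 5 (0.22). With array weights 2109 of the 8107 genes tested were called higher and 2173 lower in GF. In batch 1 alone 46.9% passed. The calls under these settings, that of Pdk1 included, are to be read against those numbers.

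The counts of genes higher and lower were 108 and 138 with no batch term, 557 and 613 with the replicate block, 2109 and 2173 with array weights, 1893 and 1908 in batch 1 alone, 89 and 130 in batch 2 alone, and 645 to 1063 and 722 to 1082 without 1 array. The interaction count was 356 with the replicate block and 402 to 998 without 1 array, and the arrays that lowered it most were CONV replicates 2 and 3 (415 and 402) and GF replicates 1, 2 and 3 (411, 407 and 423).

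Changes near 0 turned sign, and the cause was not tested. Dlat was at -0.13 with array weights, -0.0007 without CONV replicate 6, -0.0687 without GF replicate 5 (highest 0.0927 without GF replicate 1) and -0.16 in batch 1 alone, and Pdhb was at -0.0075 without GF replicate 2 (highest 0.0585 without CONV replicate 6) and -0.0122 in batch 2 alone. The Pdha1 interaction was 0.0286 without CONV replicate 6 (lowest -0.1491 without CONV replicate 4), and that of Pdk1 was 0.09 without CONV replicate 5 and 0.10 without GF replicate 5 (lowest -0.2385 without GF replicate 4). In batch 2 alone Ldha was at 0.15, Acly at -0.19, Glrx5 at 0.0336, Bola3 at 0.0806, Ogdh at 0.037 and Ppard at 0.0692. Acly was at -0.006 and -0.0027 without CONV replicates 1 and 2 (highest 0.0861 without GF replicate 4), and Ppard at 0.0012, 0.02 and 0.0094 without CONV replicates 2, 3 and 4 and at 0.0074 and 0.0313 without GF replicates 1 and 3 (lowest -0.0601 without CONV replicate 6). Pdk2 had the lowest batch 1 intensity of the members, 155 to 266 against negative controls at 56.7 to 58.7, and was detected on all 12 arrays, while Pdha1 was bright and counted as detected on no batch 1 array.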
